A study of Homo sapiens with 6 samples.

Results

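The MYC, MAX and MXD network is a set of 10 human genes for transcription factors that share the partner protein MAX. The genes were chosen by symbol from a fixed list (MYC, MYCN, MYCL, MAX, MXD1, MXD3, MXD4, MXI1, MNT and MGA). All 10 were found among the 62252 genes obtained by summing transcripts, and 9 of them were among the 21045 genes abundant enough to test. Poly(A) RNA was sequenced from K562, a human chronic myelogenous leukemia cell line with erythroid features. The cells carried a doxycycline (Dox)-inducible cassette for Flag-PCBP1, a tagged copy of the poly(C)-binding RNA-binding protein PCBP1. The cassette was placed at the AAVS1 safe-harbor site of a parental line grown from a single K562 clone. Cells carrying it were selected with puromycin and grown on, under that drug, as a polyclonal line. The 3 Control libraries came from cells without Dox (−Dox) and the 3 PCBP1 OE libraries from cells of the same line with Dox (+Dox). The Dox concentration and the hours of treatment behind these libraries are not given in the sources used here.

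The +Dox cells received the drug and were induced to make Flag-PCBP1, and the contributions of the drug and of the protein cannot be told apart. No label says that the replicates came from separate cultures, so every p-value below measures the spread between these libraries, which may be technical. Total estimated counts ranged from 70905656 to 84177316 per library. PCBP1 itself, whose reads may come from the endogenous gene or from the transgene, was at 248, 270 and 267 CPM (counts scaled to library size with TMM factors) in −Dox and at 1030, 936 and 1037 CPM in +Dox. Its log2 fold change, +Dox against −Dox, was 1.94 (SE 0.055, n = 3 per group, edgeR adjusted p = 5.22e-10). Every library therefore matched its label. On the leading principal component (31.1% of the variance), all −Dox libraries lay on one side and all +Dox libraries on the other.

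MYC, MYCN and MYCL proteins activate transcription as dimers with MAX, most readily from the E-box CACGTG. The MXD proteins (with MXI1 as the member also called MXD2) and MNT bind the same partner and the same motif but recruit the SIN3 corepressor, and MGA carries MAX into a Polycomb complex, PRC1.6. The relative amounts of activators and antagonists for the shared partner are known to shift as blood cells move from growth to differentiation, and MYC mRNA is known to be short-lived. Of the 9 network genes tested, 5 passed an adjusted p of 0.05 in edgeR's quasi-likelihood test. The count was 3, with MXD1 and MNT no longer called, without −Dox replicate 1, +Dox replicate 1 or +Dox replicate 3, and with an offset for transcript length. Across all genes tested the share was 15.8%, and among the genes with a mean of at least 10 CPM it was 26.6%. MYC, MXD1 and MNT were lower in +Dox, as were 7.68% of all genes tested and 13.8% of those at 10 CPM or more. MXD3 and MXD4 were higher, as were 8.16% of all genes tested and 12.8% of those at 10 CPM or more. Of the 9 network genes tested, 8 had a mean at that level. None of the 9 passed the study's DEG rule of an absolute log2 fold change above 1, which 1.46% of all genes tested passed. MYC had the largest change of the 9. The median log2 fold change of the 9 genes was −0.07, beside 0.01 over all genes tested. In the same 5 genes no +Dox value fell within the −Dox range or the reverse, which held for 33.2% of all genes tested. In bulk RNA, fewer cells of a type and less RNA per cell cannot be told apart.

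**Figure D1:**
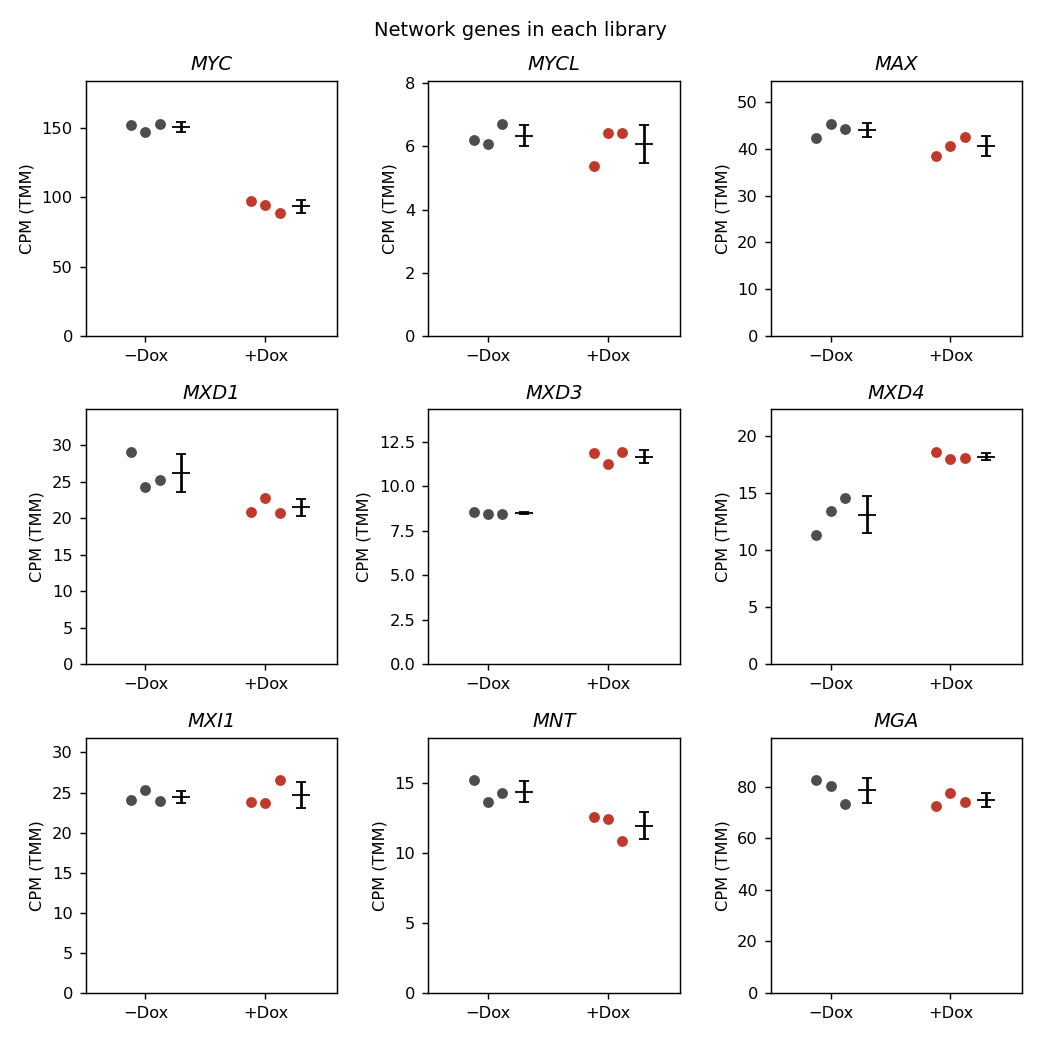
Level of each tested network gene in CPM (TMM-scaled, vertical axes from 0) in the 3 −Dox (gray) and 3 +Dox (red) libraries, with the group mean and SD in black. MYC, MXD1 and MNT sit lower in every +Dox library, MXD3 and MXD4 sit higher, and MYCL, MAX, MXI1 and MGA overlap on this scale.

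MYC (chr8:127735434-127742951, plus strand, GRCh38), the broadly expressed activator of growth and ribosome genes, was at 152.0, 147 and 153 CPM in −Dox. It was at 96.9, 94.6 and 88.3 CPM in +Dox. The highest +Dox library lay well below the lowest −Dox library. MYC fell by 0.69 on the log2 scale (SE 0.049, edgeR adjusted p = 2.15e-06), a decrease of 38.0%. The spread within groups was small beside this difference, with 151 ± 3.40 CPM in −Dox and 93.3 ± 4.46 CPM in +Dox (SD, n = 3 each). Among its transcripts, MYC-202 carried most of the gene's TPM, a level scaled for transcript length and depth. It was at 39.5, 36.4 and 39.4 TPM in −Dox and at 22.0, 23.4 and 20.0 TPM in +Dox. MYC-205, the next most abundant, was at 17.6, 17.1 and 17.2 TPM in −Dox and at 13.2, 12.3 and 10.4 TPM in +Dox. Both transcripts were lower in every +Dox library. The share of MYC-202 in the gene's TPM was 55.7% ± 1.01 in −Dox and 51.0% ± 1.41 in +Dox (SD, n = 3 each), a change that did not pass the test over all transcripts (limma, adjusted p = 0.814).

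The other members of the MYC family were scarce. MYCN (chr2:15940550-15947007), the family member best known from neuroblastoma, had 0 counts in all 6 libraries. A count of 0 allows up to 3 counts, or 0.0356 to 0.0423 CPM depending on the library, for counting error only. MYCL (chr1:39895428-39902256), first described in lung cancer, was at 6.20, 6.09 and 6.72 CPM in −Dox and at 5.37, 6.42 and 6.43 CPM in +Dox. The MYCL groups overlapped, and its log2 fold change of −0.06 (SE 0.108) did not pass the test (edgeR adjusted p = 0.780).

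MAX (chr14:65006174-65102695, minus strand), the shared partner of all the other proteins in the set, was at 42.3, 45.4 and 44.3 CPM in −Dox. It was at 38.4, 40.7 and 42.6 CPM in +Dox. The highest +Dox library lay above the lowest −Dox library, and the log2 fold change of −0.12 (SE 0.057) did not pass the test (edgeR adjusted p = 0.200). With an offset for transcript length the log2 fold change was −0.29 (edgeR adjusted p = 0.125). In TPM the groups did not overlap, at 35.0, 41.2 and 35.5 in −Dox and at 28.8, 27.8 and 32.8 in +Dox. Without the short retained-intron transcript MAX-209, described below, MAX was at 24.4, 26.2 and 24.0 TPM in −Dox and at 21.4, 27.8 and 25.6 TPM in +Dox, and the groups overlapped. Of the exon bases of MAX, 13.1% also lie in exons of FNTB on the other strand, whose log2 fold change was 0.15 (edgeR adjusted p = 0.220). The strand setting behind the counts is not given in the sources used here, so reads in shared stretches cannot be assigned with certainty. MAX protein exists in a longer and a shorter form that differ by a short cassette exon just before the DNA-binding region. The exon is shown because its inclusion sets which form is made. It lies at chr14:65101546-65101572 on the minus strand and has 27 bases, written here in the direction of transcription.
MAX cassette exon: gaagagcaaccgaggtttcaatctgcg

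Inclusion of this exon was not shown to differ between the groups, and the sign of the difference depended on the measure. By TPM over all 17 annotated transcripts that span the exon, inclusion was 47.4% ± 3.58 in −Dox and 56.1% ± 7.50 in +Dox (SD, n = 3 each, two-sided exact permutation p = 0.2). Over protein-coding transcripts alone it was 70.7% ± 3.57 in −Dox and 65.8% ± 2.09 in +Dox (exact permutation p = 0.3). By estimated counts it was 69.5% ± 0.903 and 71.6% ± 3.04 (exact permutation p = 0.4). The smallest p that 3 against 3 libraries can give is 0.1. A short retained-intron transcript, MAX-209, had 327 bases and a mean of only 55.9 counts, but 33.0% of the gene's TPM in −Dox and 15.9% in +Dox. It was at 10.6, 15.0 and 11.5 TPM in −Dox and 7.37, 0 and 7.25 TPM in +Dox. The main protein-coding transcript, MAX-205, was at 11.7, 11.4 and 12.2 TPM in −Dox and at 9.04, 11.1 and 11.0 TPM in +Dox. The groups do not overlap for either transcript, though the gap for MAX-205 is small.

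The 4 MXD genes did not move together. MXD1 (chr2:69897688-69942945, plus strand), an antagonist induced as myeloid cells differentiate, was at 29.1, 24.3 and 25.3 CPM in −Dox and at 20.9, 22.8 and 20.7 CPM in +Dox. All +Dox libraries lay below all −Dox libraries, with a log2 fold change of −0.29 (SE 0.075, edgeR adjusted p = 0.0203). Without −Dox replicate 1, which was the highest, the log2 fold change was −0.21 and did not pass. It did not pass without +Dox replicate 1 (−0.27) or replicate 3 (−0.26) either, nor with an offset for transcript length (−0.30, edgeR adjusted p = 0.112). Over all genes tested, leaving out a library gave 2267 to 3313 calls in place of 3333.

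MXD3 (chr5:177301461-177312757, minus strand), an antagonist usually found in cycling cells, was at 8.58, 8.47 and 8.47 CPM in −Dox and at 11.9, 11.3 and 11.9 CPM in +Dox. It rose in every +Dox library, with a log2 fold change of 0.46 (SE 0.077, edgeR adjusted p = 0.00159), an increase of 37.3%. MXD3 lies among close neighbors. Of its exon bases, 24.2% are shared with PRELID1 on the other strand and 19.5% with RAB24 on the same strand. The log2 fold changes of these neighbors were −0.17 (edgeR adjusted p = 0.0850) for PRELID1 and −0.06 (edgeR adjusted p = 0.644) for RAB24. The strand setting is not given, and the part of reads from these neighbors in the MXD3 counts was not tested. The protein-coding transcript MXD3-203 was at 3.28, 2.13 and 1.65 TPM in −Dox and at 5.89, 4.06 and 5.79 TPM in +Dox. The transcript MXD3-202, which ends in a different last exon, was at 0.993, 1.0 and 1.01 TPM in −Dox and at 0.565, 0.775 and 0.706 TPM in +Dox. The groups did not overlap for either transcript, and they differed in opposite directions. The share of MXD3-203 in the gene was 32.5% ± 10.8 in −Dox and 52.3% ± 10.3 in +Dox, and that of MXD3-202 was 13.9% ± 1.40 and 6.82% ± 1.27 (SD, n = 3 each). Neither share passed the test over all transcripts (limma, adjusted p = 0.736 and 0.540).

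MXD4 (chr4:2247432-2262109, minus strand), another antagonist linked to differentiation, was at 11.4, 13.4 and 14.6 CPM in −Dox and at 18.6, 18.0 and 18.1 CPM in +Dox. The −Dox libraries were the more scattered, and all lay below the +Dox libraries. The log2 fold change was 0.47 (SE 0.087, edgeR adjusted p = 0.00265), and MXD4 stayed called without −Dox replicate 1, the lowest library, at 0.38. Its most abundant transcript, the protein-coding MXD4-201, was at 2.04, 2.55 and 2.62 TPM in −Dox and at 3.27, 3.26 and 3.30 TPM in +Dox. Its share of the gene was 53.4% ± 12.4 in −Dox and 52.0% ± 7.08 in +Dox (SD, n = 3 each). The difference in share did not pass the test over all transcripts (limma, adjusted p = 0.981). MXI1 (chr10:110207605-110287365, plus strand), the most abundant antagonist per length, was at 24.0, 25.3 and 24.0 CPM in −Dox and at 23.8, 23.7 and 26.5 CPM in +Dox. The MXI1 groups overlapped, and the log2 fold change was 0.01 (SE 0.063, edgeR adjusted p = 0.926).

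MNT (chr17:2384073-2401104, minus strand), an antagonist present in growing and resting cells alike, was at 15.2, 13.6 and 14.2 CPM in −Dox and at 12.5, 12.4 and 10.8 CPM in +Dox. The groups did not overlap, with a log2 fold change of −0.27 (SE 0.081, edgeR adjusted p = 0.0414). This call was lost whichever of the 6 libraries was left out, with log2 fold changes of −0.31 to −0.20, and with an offset for transcript length (−0.17, edgeR adjusted p = 0.453). An unnamed transcript unit on the other strand shares 12.2% of the MNT exon bases but was nearly without counts. MGA (chr15:41621134-41773081, plus strand), a very large protein with a second, T-box DNA-binding domain, was at 82.4, 80.4 and 73.2 CPM in −Dox and at 72.6, 77.6 and 74.2 CPM in +Dox. The MGA groups overlapped, and the log2 fold change of −0.07 (SE 0.056) did not pass (edgeR adjusted p = 0.444), nor did the −0.14 obtained with an offset for transcript length (edgeR adjusted p = 0.240).

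**Figure D2:**
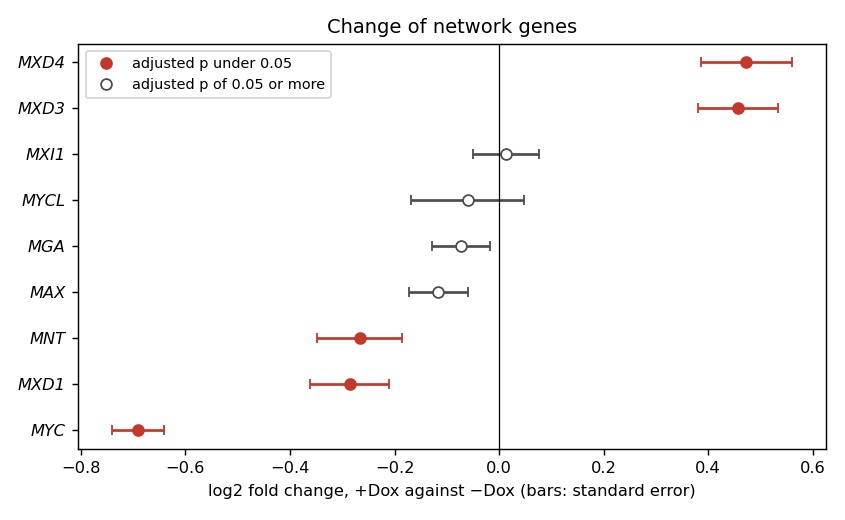
Log2 fold change of the 9 tested network genes, +Dox against −Dox, with standard errors from edgeR (horizontal axis, 0 marked). Red points passed an adjusted p of 0.05. MYC lies at −0.69, MXD3 and MXD4 at 0.46 and 0.47, and MYCL, MAX, MXI1 and MGA within 0.12 of 0.

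In all, 64 transcripts of the 9 genes were tested for a change in their share of the gene. None passed an adjusted p of 0.05 in limma, and 6 had an unadjusted p under 0.05. Over all 75200 transcripts tested, 0.104% passed the adjusted threshold and 6.73% the unadjusted one. Levels of some transcripts were unsteady between replicates. MXI1-214, for example, was at 0, 1.97 and 1.30 TPM in −Dox and at 0.397, 4.19 and 0.985 TPM in +Dox. Such spread limits what the transcript values can show, and a share that did not pass is not shown to be unchanged.

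Levels of different genes are comparable only per length, so the make-up of the network was described in TPM. For some genes the TPM includes short or noncoding transcripts, some with few counts. Retained-intron MNT-205 (528 bases, mean of 21.8 counts) held 23.7% of MNT's TPM in −Dox and 20.4% in +Dox. Another, MNT-209, held 28.2% and 23.7%. MXD4-205 (522 bases, no defined coding sequence, mean of 29.2 counts) held 20.1% and 24.6% of MXD4's TPM. The order and sums below were not recomputed without such transcripts. In −Dox, MYC was the highest at 69.1 ± 3.93 TPM, followed by MAX at 37.2 ± 3.44 TPM (MAX-209 included) and MXI1 at 11.7 ± 0.709 TPM (SD, n = 3 each). MGA (7.49 TPM) and MXD3 (7.26 TPM) overlapped in the libraries, as did MXD1 (5.08 TPM), MXD4 (4.59 TPM) and MNT (4.39 TPM). MYCL followed at 2.15 TPM, and MYCN was last at 0. In +Dox, MYC and MAX still led, at 42.7 ± 2.30 TPM and 29.8 ± 2.67 TPM (SD, n = 3 each). MXD3 had moved up to 10.0 TPM, where its libraries overlapped those of MXI1 (11.4 TPM), and MXD4 had moved up to 6.37 TPM, overlapping MGA (6.64 TPM). MXD1 (4.02 TPM) and MNT (3.81 TPM) overlapped below them, above MYCL (1.97 TPM).

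The summed TPM of MYC and MYCL was 74.6, 66.7 and 72.3 in −Dox and 45.3, 46.7 and 42.1 in +Dox. The summed TPM of the 6 antagonists (MXD1, MXD3, MXD4, MXI1, MNT and MGA) was 42.8, 38.0 and 40.7 in −Dox and 42.2, 42.5 and 42.1 in +Dox. The activator sum was thus lower in every +Dox library, while the antagonist sum overlapped. The ratio of the activator sum to the antagonist sum was 1.75, 1.76 and 1.78 in −Dox and 1.07, 1.10 and 1.0 in +Dox. The group means were 1.76 ± 0.0162 and 1.06 ± 0.0512 (SD, n = 3 each), and the +Dox mean was 0.601 times the −Dox mean. With CPM in place of TPM, which is not a level per length, the +Dox mean was 0.643 times the −Dox mean. These sums concern RNA, not protein, over all annotated transcripts, noncoding ones included, and were not tested. The ratio contains the change of MYC given above.

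**Figure D3:**
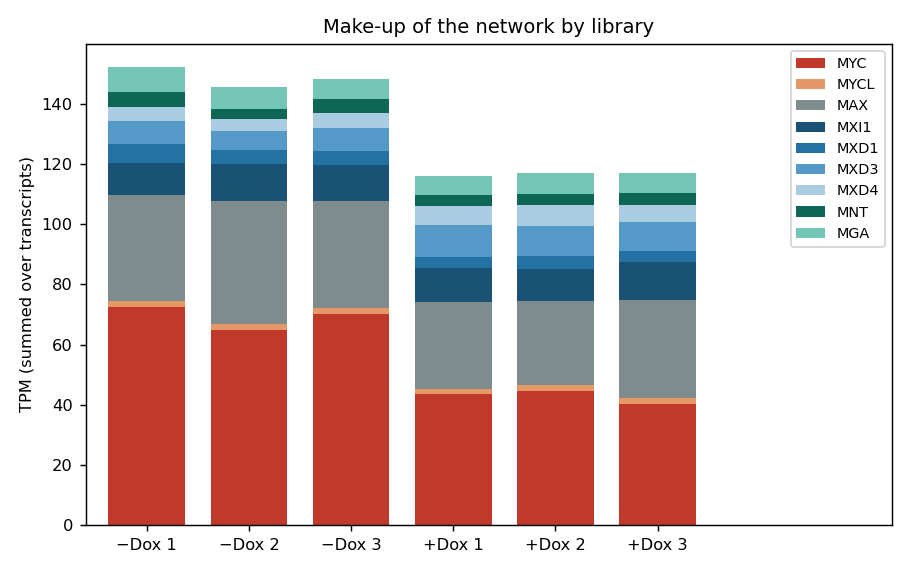
Stacked TPM of the network genes in each of the 6 libraries (vertical axis from 0; MYCN is at 0 and not drawn). The MYC block shrinks from 69.1 TPM on average in −Dox to 42.7 TPM in +Dox, while the blue and green antagonist blocks sum to 40.5 and 42.3 TPM.

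**Figure D4:**
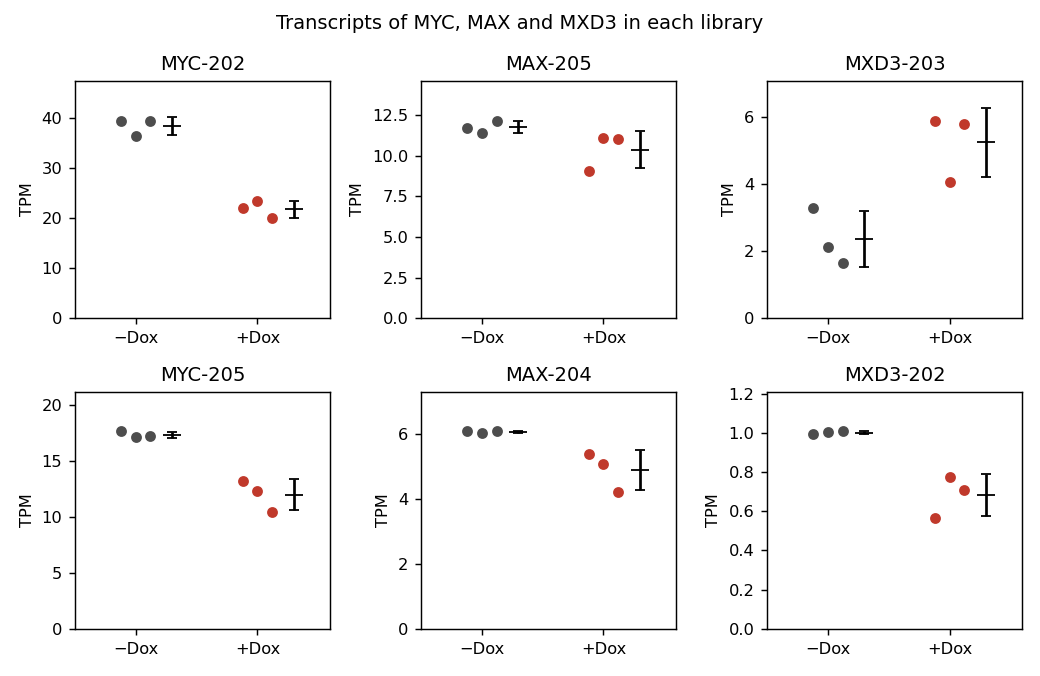
TPM (vertical axes from 0) of the main transcripts of MYC and MAX and of 2 MXD3 transcripts in the 3 −Dox (gray) and 3 +Dox (red) libraries, with mean and SD in black. MYC-202 and MYC-205 are lower in every +Dox library, MXD3-203 is higher and MXD3-202 is lower.

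The genes of proteins that work with the network were read against the 15.8% of all genes tested and the 26.6% of genes at 10 CPM or more that were called in either direction. In the list for the MLX arm, a parallel branch in which MLX takes the place of MAX, 1 of 5 genes rose and 1 fell (median log2 fold change 0.02), too few genes to set a share against these. MLXIPL, the glucose-sensing factor ChREBP, was at 3.77, 3.80 and 4.55 CPM in −Dox and at 6.37, 5.78 and 6.39 CPM in +Dox (log2 fold change 0.61, SE 0.118, edgeR adjusted p = 0.00354). TXNIP, a well-known target of this arm and an inhibitor of thioredoxin and glucose uptake, was at 380, 325 and 304 CPM in −Dox and at 258, 262 and 266 CPM in +Dox (log2 fold change −0.36, SE 0.068, edgeR adjusted p = 0.00322). Neither gene overlapped between the groups, and they moved in opposite directions. Of 16 genes of the SIN3 corepressor, through which the MXD proteins and MNT repress, 1 rose and 1 fell (median −0.02), which is not above the 26.6% of genes at 10 CPM or more. These were the subunit genes SAP130, with a log2 fold change of 0.23 (edgeR adjusted p = 0.0196), and BRMS1, with −0.26 (edgeR adjusted p = 0.0205). Of 10 partners of MGA in PRC1.6, 1 rose and 1 fell (median −0.02), also not above that share. PCGF6, the subunit that defines this complex, was at 31.7, 31.7 and 30.5 CPM in −Dox and at 24.5, 27.6 and 26.4 CPM in +Dox (log2 fold change −0.26, edgeR adjusted p = 0.0104). TFDP2, the dimer partner of E2F proteins, had a log2 fold change of 0.16 (edgeR adjusted p = 0.0336). The call of a lower gene in the SIN3 list went from 1 to 0 without −Dox replicate 2 or 3 or +Dox replicate 1 or 2. It was also 0 there with an offset for transcript length. In the PRC1.6 list the call of a lower gene went from 1 to 0 without +Dox replicate 1.

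Of 14 genes for cofactors of MYC, 1 rose and 2 fell (median log2 fold change −0.09), which lies between the shares called among all genes tested (15.8%) and among genes at 10 CPM or more (26.6%). EP400, the ATPase of the TIP60 complex, was at 62.8, 57.5 and 59.9 CPM in −Dox and at 51.5, 52.7 and 48.1 CPM in +Dox (log2 fold change −0.24, edgeR adjusted p = 0.0102). BPTF, the large subunit of the NURF remodeler, had a log2 fold change of 0.23 (edgeR adjusted p = 0.0197), and RUVBL2, an ATPase of several remodelers, one of −0.16 (edgeR adjusted p = 0.0498). Of 13 genes that act on the stability of MYC protein, 4 fell and none rose (median −0.12), or 30.8% called. Among genes at 10 CPM or more, where all 13 lie, 26.6% were called in either direction and 13.8% were called lower. PPP2R5A, the phosphatase subunit that removes a stabilizing phosphate from MYC, was at 160, 159 and 163 CPM in −Dox and at 117, 130 and 138 CPM in +Dox (log2 fold change −0.33, edgeR adjusted p = 0.00204). The genes AURKA (−0.17, adjusted p = 0.0194), USP36 (−0.27, adjusted p = 0.0254) and SET (−0.16, adjusted p = 0.0301) act on the stabilizing side and were also lower by edgeR. The list thus held a gene of each direction of action among those that fell. Of 11 tested genes next to MYC or for proteins that bind its mRNA, 1 passed, beside 15.8% of all genes tested. The number called lower was 3 with DESeq2 and 0 with an offset for transcript length. The gene that passed was PTBP1 (log2 fold change −0.18, edgeR adjusted p = 0.0263). PVT1, the long noncoding RNA gene next to MYC, which was picked out after its values were seen, was at 32.1, 32.5 and 33.3 CPM in −Dox and at 31.6, 29.4 and 30.5 CPM in +Dox. The PVT1 groups did not overlap, but its log2 fold change of −0.10 (SE 0.054) did not pass (edgeR adjusted p = 0.266). It is not shown to be unchanged. The numbers of genes called in these lists are small and changed when a library was left out. The genes called lower for stability went from 4 to 1 without −Dox replicate 2 or 3 and to 2 without any of the +Dox libraries. Those for cofactors went from 2 to 0 without +Dox replicate 3 and to 1 without −Dox replicate 2 or 3 or +Dox replicate 2. The call in the PTBP1 list went from 1 to 0 without −Dox replicate 2 or 3 or +Dox replicate 1 or 2. With an offset for transcript length, the numbers called lower were 2 for stability and 1 for cofactors. With a replicate block they were 2 for stability, 1 for cofactors and 0 in the PTBP1 list. With DESeq2 they were 6 for stability and 3 for cofactors.

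Genes known as direct targets activated by MYC were mostly lower in +Dox. The list was compiled from general knowledge of MYC, with earlier results of these data known. Of the 47 in the list, 36 fell and none rose, or 76.6% called lower. Among the 46 with a mean of at least 10 CPM, 35 fell, while 13.8% of all genes at that level were called lower. The log2 fold change was below 0 for 46 of the 47 targets and for 50.9% of the abundant genes, and 39 of the 47 had groups that did not overlap. Groups did not overlap for 33.2% of all genes tested, and did not overlap and were lower in +Dox for 23.7% of the abundant genes. The median was −0.24, beside −0.0040 for the abundant genes, so most of the differences were small. SLC7A5, the large neutral amino acid transporter, was at 64.0, 52.5 and 61.1 CPM in −Dox and at 38.1, 38.5 and 34.7 CPM in +Dox (log2 fold change −0.67, SE 0.073, edgeR adjusted p = 6.84e-05). HK2, a hexokinase of glycolysis, was at 37.3, 37.3 and 42.7 CPM in −Dox and at 23.2, 24.5 and 27.2 CPM in +Dox (log2 fold change −0.65, SE 0.074, edgeR adjusted p = 9.82e-05). Both fell by about as much as MYC itself, on the log2 scale.

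NOLC1, a nucleolar chaperone of small nucleolar ribonucleoproteins, was at 222, 222 and 209 CPM in −Dox and at 165, 165 and 157 CPM in +Dox (log2 fold change −0.42, SE 0.047, edgeR adjusted p = 7.88e-05). MYBBP1A, a nucleolar protein of ribosomal RNA synthesis, was at 45.0, 47.2 and 49.7 CPM in −Dox and at 34.4, 34.2 and 31.7 CPM in +Dox (log2 fold change −0.50, SE 0.058, edgeR adjusted p = 0.000115). No library of either group overlapped the other for these genes. The ends of the range, singled out after the values were seen, were TERT, the catalytic subunit of telomerase, at −0.84 (SE 0.163, edgeR adjusted p = 0.00389) from only 6.20 ± 1.05 CPM in −Dox, and the cell cycle kinase CDK4. CDK4 was at 168, 191 and 187 CPM in −Dox and at 192, 184 and 195 CPM in +Dox (log2 fold change 0.07, SE 0.054, edgeR adjusted p = 0.476), with groups that overlapped. It was the sole target of the list with a positive log2 fold change.

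**Figure D5:**
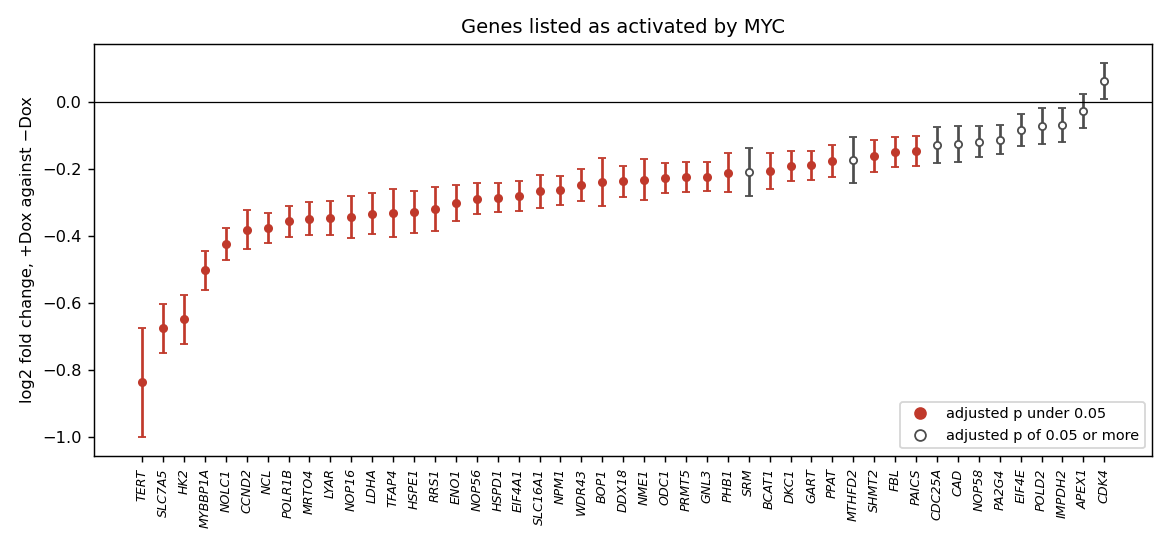
Log2 fold change, +Dox against −Dox, with standard errors for the 47 genes listed as activated by MYC, sorted by value. Red points (36 genes) passed an adjusted p of 0.05, all of them below 0, and CDK4 alone lies above 0.

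Of 9 tested genes listed as repressed by MYC, 1 rose and none fell (median log2 fold change −0.11), close to the 8.16% of all genes tested that were called higher. The log2 fold change was below 0 for 5 of the 9 and above 0 for 4, and the groups did not overlap for 4, beside 33.2% of all genes tested. CDKN1B, the cyclin-dependent kinase inhibitor p27, was at 32.5, 32.1 and 31.6 CPM in −Dox and at 39.8, 37.8 and 36.9 CPM in +Dox (log2 fold change 0.25, SE 0.054, edgeR adjusted p = 0.00703). The CDKN1B groups did not overlap. The other genes without overlap were lower in +Dox but did not pass in edgeR, with log2 fold changes of −0.11 for GADD45A (adjusted p = 0.164), −0.63 for GADD45B (adjusted p = 0.0565) and −0.13 for NDRG2 (adjusted p = 0.204), and were picked out after their values were seen. CDKN2B, the inhibitor p15, had 0 counts in every library. Most of the list was scarce in these cells, with 4 of 10 genes at a mean of at least 10 CPM.

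The E-box of the network was sought as CACGTG, which reads the same on both strands, in RefSeq promoter windows of 250 bases before to 50 bases after each gene start (GRCh38.p14). Of the 10 network genes, all but MYC had a window, and 2 of these 9, MXD4 and MNT, held the motif. The MYC promoter was not analysed here. Among the activated targets, 21 of the 37 with a window held it (56.8%). It was present for 8.77% of all 27305 genes with a window, and for 13.5% of the 7472 such genes with a mean of at least 10 CPM. The targets were listed from general knowledge of MYC, in which this motif plays a part, so their share is not an independent result. HSPD1 and HSPE1, looked up afterwards, hold the same site on opposite strands, and both count among the 21. Examples are shown for the network genes, for SLC7A5 and HK2, and for CDK4, with the E-box in capitals. MXD4 lies on chr4:2262332-2262357 and MNT on chr17:2401238-2401263, both minus strand. SLC7A5 lies on chr16:87869622-87869647, minus strand, and the HK2 sites on chr2:74834966-74834991 and chr2:74835011-74835036, plus strand. CDK4 holds 3 sites, and those farthest from and nearest to its start lie on chr12:57752511-57752536 and chr12:57752396-57752421, minus strand.
MXD4: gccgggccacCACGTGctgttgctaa
MNT: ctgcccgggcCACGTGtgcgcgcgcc
SLC7A5: ccggacgacgCACGTGctccgagctg
HK2, farther site: ttgctgcgccCACGTGggagggagcc
HK2, nearer site: ccggcgagagCACGTGgagagaatcg
CDK4, farther site: gtcaagcggtCACGTGtgatagcaac
CDK4, nearer site: gggtggcggtCACGTGcccagaacgt

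The difference between targets with and without the motif was not tested. The 21 targets with it had a median log2 fold change of −0.23 with 17 called lower (81.0%), and the 16 with a window without it had a median of −0.22 with 11 called lower (68.8%). Among genes at 10 CPM or more, 16.8% of the 1005 with the motif and 13.4% of the 6467 with a window without it were called lower. MXD4 rose and MNT was lower, though both hold the motif, and CDK4 holds it and did not pass the test. A match describes only the letters of the window, and binding was not measured here.

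Of 6 erythroid markers, which describe the lineage of K562, 2 rose, 1 fell and 3 did not pass, beside 26.6% of genes at 10 CPM or more that were called. TAL1 was at 56.3, 56.5 and 60.2 CPM in −Dox and at 78.7, 78.2 and 77.9 CPM in +Dox, with no overlap between the groups. The erythroid factor genes TAL1 (0.44, adjusted p = 8.34e-05) and KLF1 (0.46, adjusted p = 0.00121) rose by edgeR, and TFRC, the transferrin receptor gene, fell (−0.34, adjusted p = 0.000856). GATA1 and the globin genes HBG1 and HBE1 did not pass. The summed level of the 6 markers was 4898, 5536 and 4968 CPM in −Dox and 4843, 4457 and 4731 CPM in +Dox, with HBG1 the most abundant. The sums did not overlap and were lower in +Dox, by a small gap, and were not tested. The lymphoid markers CD3E, MS4A1 and PAX5 were too scarce to test. Of the monocyte (CD14, FCGR3A, CSF1R) and epithelial (EPCAM, KRT8, KRT18, CDH1) markers, 1 and 3 were abundant enough to test, and none passed in edgeR. The monocyte marker tested, FCGR3A, was scarce, at 0.815, 0.680 and 0.562 CPM in −Dox and at 0.352, 0.520 and 0.296 CPM in +Dox. Its log2 fold change was −0.81 (SE 0.346, edgeR adjusted p = 0.139). EPCAM, KRT8 and KRT18 were expressed, at 45.8, 334 and 220 CPM on average in −Dox and at 42.3, 293 and 202 CPM in +Dox. MS4A1 and PAX5 were at 0 in every library, and CD3E, CD14, CSF1R and CDH1 stayed below 0.2 CPM in every library. The erythroid markers thus went in both directions, and any relation of their differences to those of MYC and its targets was not tested.

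As a description, the genes whose log2 CPM followed MYC most closely over the 6 libraries, among 9288 genes with a mean of at least 10 CPM, were EIF2B5 (Pearson r = 0.997), VKORC1L1 (r = 0.997) and ZNF8 (r = 0.996). With 2 separated groups of 3 libraries, such values mostly restate the group difference.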

How the data were processed

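The authors quantified paired-end reads (150 cycles) with Salmon 1.10.2 and deposited, per transcript and library, estimated counts (not scaled) and TPM values (scaled for effective length and depth). The index, strand and bias settings are not given in the sources used here. Transcripts were matched to GENCODE 44 on GRCh38 without regard to version (251612 of 252045, the rest holding at most 0.138% of a library's counts) and summed per gene.

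Gene sums were rounded and tested with edgeR 4.0.16 (quasi-likelihood, TMM, mean count above 10, Benjamini-Hochberg over 21045 genes, two-sided, no replicate term). DEG means adjusted p under 0.05 with an absolute log2 fold change above 1. Transcript shares were tested with limma 3.58.1 on the log2 ratio of a transcript to the rest of its gene (pseudocount 0.1 TPM, gene mean of at least 1 TPM, mean count of at least 10). Single values were compared by exact permutation. Alternatives were DESeq2 1.42.0, other size factors and filters, a length offset, a replicate term and leaving out each library. Scripts were tested on simulated data. Intervals and floors (3 counts) cover counting error only.

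Named genes are all network genes, PCBP1, up to 4 genes per list by smallest p among those called, and the 3 genes most like MYC. Also named are transcripts with at least 10% of a gene's TPM. Those of MYC, MAX, MXD3, MXD4, MXI1 and MNT are given where they bear on the result. The network genes and the 8 lists were chosen with earlier results of these data known. MAX exon inclusion, MAX without MAX-209, the abundant-gene background and the split of targets by E-box were added after seeing the data. CASC11 and CDKN2B were too scarce to test, and CCAT1 was not matched by name. A few marker genes are not reported here.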

Additional observations from a re-analysis of the deposited data

How the results depend on the processing

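MYC (log2 fold change −0.72 to −0.65), MXD3 (0.44 to 0.50) and MXD4 (0.38 to 0.55) passed in all 13 settings, and no network gene changed to the opposite call. With a transcript length offset, 1883 genes were called in place of 3333 and 3 network genes in place of 5, with MXD1 at −0.30 (edgeR adjusted p = 0.112) and MNT at −0.17 (edgeR adjusted p = 0.453). Leaving out each library gave 3 to 4 network genes, MXD1 at −0.34 to −0.21 and MNT at −0.31 to −0.20. The cause of these losses was not tested. Activated targets called lower numbered 26 to 40 over all settings.

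Same-numbered libraries did not deviate together (correlations of −0.06 to 0.0075), so the numbers were not treated as pairs. With the replicate block, 2490 genes were called, MNT was at −0.27 and did not pass (edgeR adjusted p = 0.0602), and no transcript share passed (0 calls).

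Transcript shares called numbered 78 as reported, 22 with a pseudocount of 1 TPM, 208 with estimated counts and 0 to 101 without each library. Transcripts of network genes numbered 0 to 1 without each library, the exception being MAX-206 without −Dox replicate 3 (limma, adjusted p = 0.0421). The activator to antagonist ratio, +Dox over −Dox, was 0.643 in CPM. Depth sets the floor for MYCN, which had no counts.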
